A study of Mus musculus with 4 samples.

Results

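The 10 genes described here belong to the circadian clock: Arntl, Npas2, Per1, Per2, Per3, Bhlhe41, Dbp, Tef, Nr1d1 and Nr1d2. Every probe whose RefSeq target accession maps to one of these symbols was taken, which gave 12 of the 39429 probes on the array, and the 10 genes stand among 25694 genes tested. Bhlhe41 and Dbp had 2 probes each and the other members 1. For 6 members, Arntl, Per1, Dbp, Tef, Nr1d1 and Nr1d2, the image software flagged the brightest probe as well above background in all 8 extracts, as it did for 18349 of the genes tested; these are called fully measured. For Npas2, Per2, Per3 and Bhlhe41 at least 1 extract was not well above background.

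The samples were extracts of ears from male BALB/c mice aged 6 to 10 weeks, harvested with the temporal bone around the middle ear. The exposed mice inhaled diesel exhaust particles (DEP) for 1 h on each of days 1 to 5 and were killed on day 14, and the other ears carry the treatment label "none". Each of 4 two-colour arrays compared 1 extract labelled DEP_ear, in the red dye Cy5, with 1 labelled CON_ear, in the green dye Cy3. The study used 9 mice, and how many stand behind an extract, the hour of killing and the light schedule are not given in the sources used here.

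In the mouse clock, the proteins of Arntl (also called Bmal1) and of Clock or its relative Npas2 bind E-boxes and drive transcription of the Per, Cry, Nr1d and Dbp genes. PER and CRY proteins then repress that drive, and the REV-ERB receptors encoded by Nr1d1 and Nr1d2 repress Arntl and Npas2 in turn. The messages of Per1 to Per3, Dbp, Tef, Nr1d1 and Nr1d2 are therefore high at an opposite time of day to those of Arntl and Npas2 in most tissues. Extracts taken at opposite clock phases could thus differ in both groups, in opposite directions. Smaller phase differences need not do so, and a lack of such differences does not show that extracts share a phase. Bhlhe41, an E-box repressor, was placed with the first group, and these 8 genes are called the Per and Dbp group below. Liver, lung, muscle and brain all keep such a clock, with levels and timing that differ between tissues.

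The binding motifs of the loop can be read in the promoters of some members, which are shown because the loop acts through them. The windows came from the RefSeq annotation on build GRCm38.p6, ran from 250 bases before to 50 bases after an annotated start, and covered 9 of the 10 members. Exact matches on both strands were sought for the E-box CACGTG, the D-box core TTATGNAA that DBP and TEF bind, the core TAGGTCA bound by REV-ERB and ROR receptors, and the cAMP response element TGACGTCA. None of these 4 motifs is a part of another, and CACGTG and TGACGTCA each read the same on both strands. The 250 bases before the start are given below for 4 members, 5′ to 3′ on the strand of the gene, and for Arntl a 30-base site just after the start. Capitals mark the matches.
Per1, chr11:69098699-69098948, plus strand: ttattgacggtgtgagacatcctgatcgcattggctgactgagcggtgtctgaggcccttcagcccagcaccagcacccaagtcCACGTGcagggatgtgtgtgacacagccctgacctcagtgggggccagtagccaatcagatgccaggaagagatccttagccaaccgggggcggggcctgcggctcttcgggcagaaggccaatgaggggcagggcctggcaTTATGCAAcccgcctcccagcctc
Per3, chr4:151044666-151044915, minus strand: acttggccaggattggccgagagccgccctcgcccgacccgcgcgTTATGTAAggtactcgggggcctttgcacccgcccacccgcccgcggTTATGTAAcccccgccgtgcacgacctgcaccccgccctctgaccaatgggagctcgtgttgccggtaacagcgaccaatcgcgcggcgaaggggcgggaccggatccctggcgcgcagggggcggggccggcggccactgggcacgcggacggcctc
Bhlhe41, chr6:145865421-145865670, minus strand: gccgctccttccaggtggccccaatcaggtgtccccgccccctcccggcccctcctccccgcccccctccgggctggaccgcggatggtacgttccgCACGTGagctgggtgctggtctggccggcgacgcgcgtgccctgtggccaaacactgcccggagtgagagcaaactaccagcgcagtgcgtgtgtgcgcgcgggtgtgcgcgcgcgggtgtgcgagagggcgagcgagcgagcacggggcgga
Tef, chr15:81802423-81802672, plus strand: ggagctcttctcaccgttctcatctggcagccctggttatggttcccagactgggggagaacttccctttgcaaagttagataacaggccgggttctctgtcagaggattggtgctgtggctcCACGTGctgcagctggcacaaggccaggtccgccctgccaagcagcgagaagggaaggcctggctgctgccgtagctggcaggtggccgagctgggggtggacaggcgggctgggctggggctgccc
Arntl, chr7:113207531-113207560, plus strand: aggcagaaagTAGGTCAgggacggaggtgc

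The E-box stood in windows of Per1, Bhlhe41 and Tef, at -166, -153 and -127 from the start, with a further one at -138 in a second Tef window, and in 8.09% of all 27025 genes with a window. Per1 also held a D-box core at -24, and Per3 held 2 of them, at -205 and -158, against 3.99% of all genes with that motif. The receptor core, found in 2.97% of all genes, stood at 30 bases past an Arntl start. Another window of Arntl and another of Per1 held no match to any motif. No member window held the cAMP response element, found in 2.03% of all genes. The letters alone are described here, and no binding was measured.

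Values below are log2 ratios of the DEP channel over the control channel, written by the authors' image software as log10 ratios, and a value above 0 means a higher signal in the DEP channel. The direction rests on the source names of the labels, and it is opposite to the direction in which the study lists its changed genes. A reader who follows the study should turn every sign and swap DEP and control in statements about signals. No dye was swapped, so a dye preference of a transcript and the treatment cannot be told apart. Signals are given after the software's within-array correction and a scaling between arrays that leaves each array's ratios as they were; they compare extracts for 1 probe and not 1 gene with another. In the DEP channel against the control channel, none of the 10 members passed an adjusted p of 0.05 in limma, nor did any other gene (0.0% of genes tested).

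Arntl, the core activator, had signals of 986.0, 1232, 1119 and 1215 in the DEP extracts of arrays 1 to 4 and of 1169, 1680.4, 1238 and 1384 in the control extracts. The DEP extract was the lower one on each array, although the groups overlapped. The ratios were -0.25, -0.45, -0.14 and -0.19, a mean of -0.26 ± 0.13 (SD, n = 4; SE 0.11; adjusted p = 0.299), and the mean turned to 0.04 under another background correction with median centring. A ratio below 0 on all arrays was found for this 1 member and for 10.9% of all genes tested.

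Npas2, the partner that can stand in for CLOCK, was dim. Its signals were 26.1, 30.8, 32.0 and 32.9 in the DEP channel and 18.3, 26.4, 69.0 and 39.2 in the control channel, and on array 1 neither extract was well above background. The ratios of 0.51, 0.22, -1.11 and -0.25 had no common sign, and their mean was -0.16 ± 0.71 (SD, n = 4; adjusted p = 0.788). Its value on array 3, the lowest of any member on any array, rested on the highest of its control signals.

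**Figure D1:**
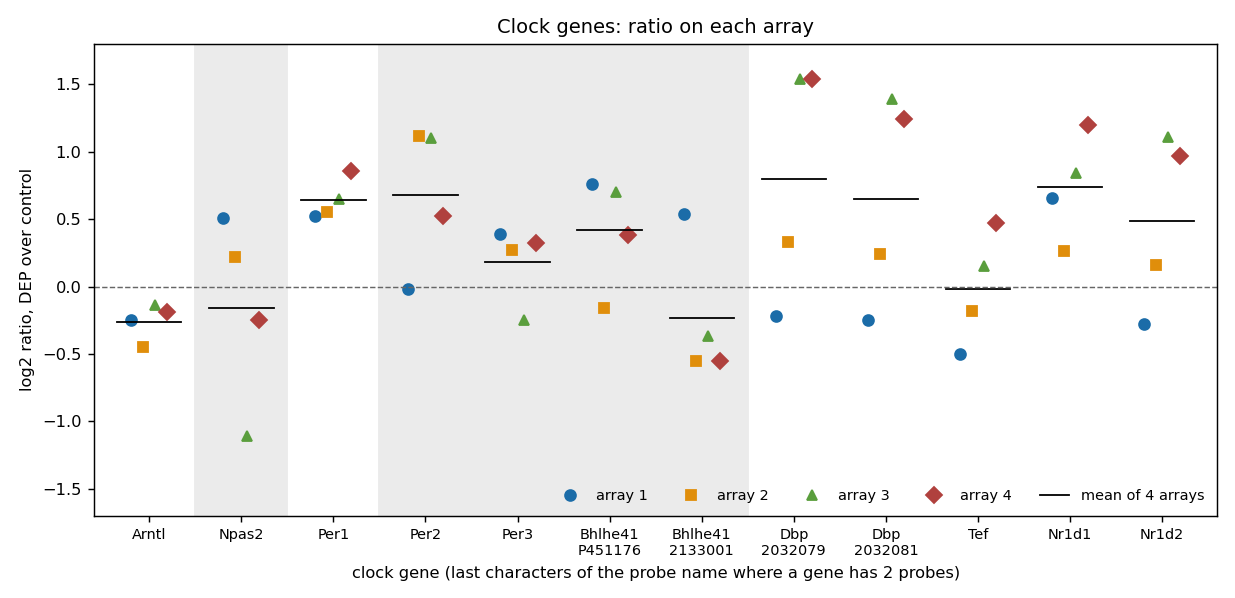
Log2 ratio of the DEP channel over the control channel (vertical axis) for the 12 clock gene probes on arrays 1 to 4 (symbols), with the mean of the 4 arrays as a bar; grey columns are probes not well above background in every extract. Per1 and Nr1d1 lie above 0 on all 4 arrays, and both Dbp probes range from below 0 on array 1 to above 1 on arrays 3 and 4.

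Of the repressors of the loop, Per1 had the steadiest ratio. Per1 encodes a PER repressor and is also induced acutely by light and by glucocorticoids. Its signals were 2609, 1402, 1733 and 1632 in the DEP extracts and 1815, 958.3, 1106 and 900.0 in the controls. The DEP extract was the higher one on every array, but the array 1 control was above 3 of the 4 DEP extracts. The ratios were 0.52, 0.55, 0.65 and 0.86, with a mean of 0.64 ± 0.15 (SD, n = 4; SE 0.11; adjusted p = 0.122). With the other background correction and median centring the mean was 1.00 and its adjusted p 0.0269, in a setting where 11.0% of all genes passed after adjustment.

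Per2, the second PER repressor, had DEP signals of 91.1, 54.2, 46.3 and 56.2 and control signals of 92.3, 24.8, 21.5 and 39.3. The control signal was well above background on 2 arrays, so the ratios on the others depend on the background estimate. The ratios were -0.02, 1.12, 1.10 and 0.52, and their mean was 0.68 ± 0.55 (SD, n = 4; adjusted p = 0.238). The lowest of its means among the alternatives was 0.08.

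Per3, whose loss leaves the clock running, was near background in the controls, with 1 control extract of 4 well above it. DEP signals were 50.8, 26.5, 30.3 and 29.3 and control signals 38.7, 21.9, 36.1 and 23.4. The ratios of 0.39, 0.27, -0.25 and 0.32 gave a mean of 0.18 ± 0.29 (SD, n = 4; adjusted p = 0.538), which was -0.11 under the other background correction with median centring.

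Bhlhe41, also called Dec2, was read by 2 probes that differed in sign. The brighter one, A_51_P451176, gave ratios of 0.76, -0.16, 0.70 and 0.38, a mean of 0.42 ± 0.42 (SD, n = 4; adjusted p = 0.313). The dimmer one, A_55_P2133001, gave 0.54, -0.55, -0.37 and -0.55, a mean of -0.23 ± 0.52 (SD, n = 4; adjusted p = 0.599). Both probes were above background in only 2 control extracts, so the direction of Bhlhe41 was not settled.

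Nr1d1 and Nr1d2 encode the receptors REV-ERB alpha and beta, which bind heme and repress Arntl through the receptor core shown above. Nr1d1 had DEP signals of 997.9, 442.8, 534.5 and 474.9 and control signals of 633.7, 368.6, 298.4 and 206.6. Its ratios of 0.66, 0.26, 0.84 and 1.20 were all above 0, with a mean of 0.74 ± 0.39 (SD, n = 4; SE 0.18; adjusted p = 0.167). The array 1 control was nonetheless above 3 of the 4 DEP extracts. With the other background correction and median centring, the mean was 0.75 and the adjusted p 0.0427, among that same 11.0% of genes.

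Nr1d2 had DEP signals of 740.0, 454.6, 538.5 and 517.3 and control signals of 900.4, 406.0, 248.9 and 264.2. The highest of the 8 extracts was the array 1 control, and the lowest were the controls of arrays 3 and 4. The ratios were -0.28, 0.16, 1.11 and 0.97, a mean of 0.49 ± 0.66 (SD, n = 4; adjusted p = 0.387). The mean was 0.28 without array 3 and 0.75 without array 1.

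Dbp and Tef encode transcription factors of the PAR bZIP family, which bind D-boxes and pass clock timing to output genes. Dbp is among the messages with the largest daily swing in many tissues. Its brighter probe had DEP signals of 7129.8, 3595, 3909 and 4067 and control signals of 8303, 2853, 1347 and 1400.4. The controls thus spanned 6.16-fold and the DEP extracts 1.98-fold. The ratios were -0.22, 0.33, 1.54 and 1.54, and the mean of 0.80 ± 0.88 (SD, n = 4; SE 0.36) had an adjusted p of 0.309.

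The second Dbp probe gave similar ratios, -0.25, 0.24, 1.39 and 1.24, with a mean of 0.65 ± 0.79 (SD, n = 4; adjusted p = 0.339). Its brighter probe had a mean of 1.14 without array 1 and of 1.18 under the other background correction with median centring, the 1 member mean past 2-fold in each of those settings. Without array 3, and likewise without array 4, that mean was 0.55. Over all 4 arrays no member mean was past 2-fold, against 2.37% of genes tested above and 4.37% below.

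Tef had DEP signals of 9896, 6602, 8153 and 8207 and control signals of 14021, 7483, 7349.6 and 5923. The DEP extract was lower on arrays 1 and 2 and higher on arrays 3 and 4, with ratios of -0.50, -0.18, 0.15 and 0.47. The mean of -0.02 ± 0.42 (SD, n = 4; adjusted p = 0.969) changed sign without array 1 or array 2 and under the other background correction with median centring. Tef and Dbp, from the same family, both had their lowest ratio on array 1 and their next lowest on array 2.

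Counted together, 7 of the 10 member means were above 0, as were 54.2% of all genes tested, and the median member mean was 0.46. That median was 0.14 after normexp background correction with loess and 0.25 with median centring. At an unadjusted p under 0.05, limma called 3 members higher in the DEP channel, Per1, Per2 and Nr1d1, where 10% of all genes were called higher. It called 0 members lower, where 8.66% of genes were. Per1 and Nr1d1 were above 0 on all 4 arrays, as were 16.2% of all genes. Among the 6 fully measured members, Per1 and Nr1d1 were called higher, where 6.55% of the fully measured genes were, and none lower, where 6.07% were. These 2 were above 0 on every array, as were 15.4% of fully measured genes, and Arntl was below 0 on every array, as were 10.7%. Without array 1, 5 members were called higher at an unadjusted p under 0.05, where 10.8% of genes were in that setting.

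The question of clock phase was taken array by array. On array 1, 4 of the 8 genes of the Per and Dbp group were above 0 and their median was 0.19, while Arntl and Npas2 averaged 0.13. Of the 5 fully measured genes of the group, 2 were above 0 on array 1, and their median there was -0.22. On arrays 2 to 4 the median of these 5 was 0.26, 0.84 and 0.97. On array 2, 6 of 8 were above 0, with medians and means of 0.27 for the group and -0.11 for the pair. Arrays 3 and 4 had 7 and 8 of 8 above 0, group medians of 0.77 and 0.69, and pair means of -0.63 and -0.22. The median of all genes tested lay between -0.02 and 0.08.

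The gap between group and pair was thus 0.05, 0.38, 1.40 and 0.91 on arrays 1 to 4, a mean of 0.68 ± 0.59 (SD, n = 4), which was 0.45 without array 3 and 0.90 without array 1. Since Npas2 was dim, the gap was also taken over the fully measured members, as the median of Per1, Dbp, Tef, Nr1d1 and Nr1d2 minus Arntl. It was then 0.03, 0.71, 0.99 and 1.16, a mean of 0.72 ± 0.50 (SD, n = 4). On array 1 both measures were near 0, and on arrays 3 and 4 the group was above the pair by both measures. Arntl contributed little to the differences between arrays, since the SD of its ratio, 0.13, was the smallest of the 10 members. No test was made of these scores, because the members were chosen as a set.

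**Figure D2:**
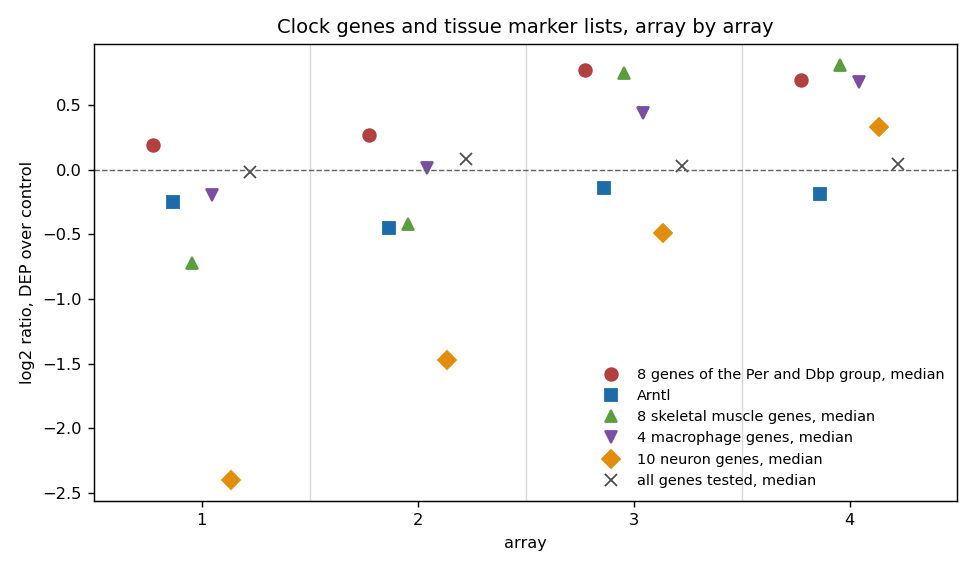
Log2 ratio of the DEP channel over the control channel (vertical axis) on arrays 1 to 4: the median of the 8 genes of the Per and Dbp group, Arntl alone, the medians of 3 tissue marker lists, and the median of all genes tested. The group lies at 0.19 and 0.27 on arrays 1 and 2 and at 0.77 and 0.69 on arrays 3 and 4, and the skeletal muscle median lies at -0.72 and -0.42 and at 0.75 and 0.81.

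Markers of other tissues moved with these ratios. The median of 8 skeletal muscle genes, all well above background in every extract, was -0.72, -0.42, 0.75 and 0.81 on arrays 1 to 4, the same order of signs as Tef. Its brightest gene Tnni2, a fast troponin, gave -0.62, -0.34, 0.86 and 0.82. The summed muscle signal lay between 308391.8 and 712687.7 in the controls, with the array 1 control highest, as for Dbp, Tef and Nr1d2. In the DEP extracts of arrays 1 to 4 it was 451849.7, 340166, 528821.3 and 492367.5. Muscle was thus highest on array 3 there, whereas Dbp, Tef and Nr1d2 were highest on array 1. In such mixed tissue, fewer cells of a type and less RNA per cell cannot be told apart. Muscle expresses clock genes, and the part of muscle content in the clock ratios was not tested.

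Other lists moved too. Medians on arrays 1 to 4 were -2.40, -1.47, -0.49 and 0.33 for 10 neuron genes, with Snap25 and Nefl brightest, and 9 of the 10 were well above background throughout. The astrocyte list stood at -2.36, -0.66, -0.10 and 0.13, and the macrophage list, led by Csf1r, at -0.20, 0.01, 0.44 and 0.68. The 6 tested cerebellum genes had the largest shift, at -3.51, -3.74, -0.28 and 0.24, and their summed signal was 71727.3, 70511.2, 9060.9 and 5023.4 in the controls against 5565.4 to 9451.4 in the DEP extracts. Of that list Car8 was not well above background in any DEP extract. Myelin genes stood at -1.12, -0.33, -0.24 and 0.29, erythroid genes at -0.83, 0.21, 0.37 and 0.20, B cell genes at -0.62, -0.03, 0.42 and 0.12, and bone genes at -0.11, 0.27, -0.10 and 0.68. Marrow neutrophil genes stood at -1.22, -0.03, 0.48 and 0.17. The middle ear epithelium list, with Bpifa1 and Krt5 bright in every extract, stood at -0.24, 0.35, -0.36 and -0.50. The part of these tissues in the clock ratios was not tested.

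**Figure D3:**
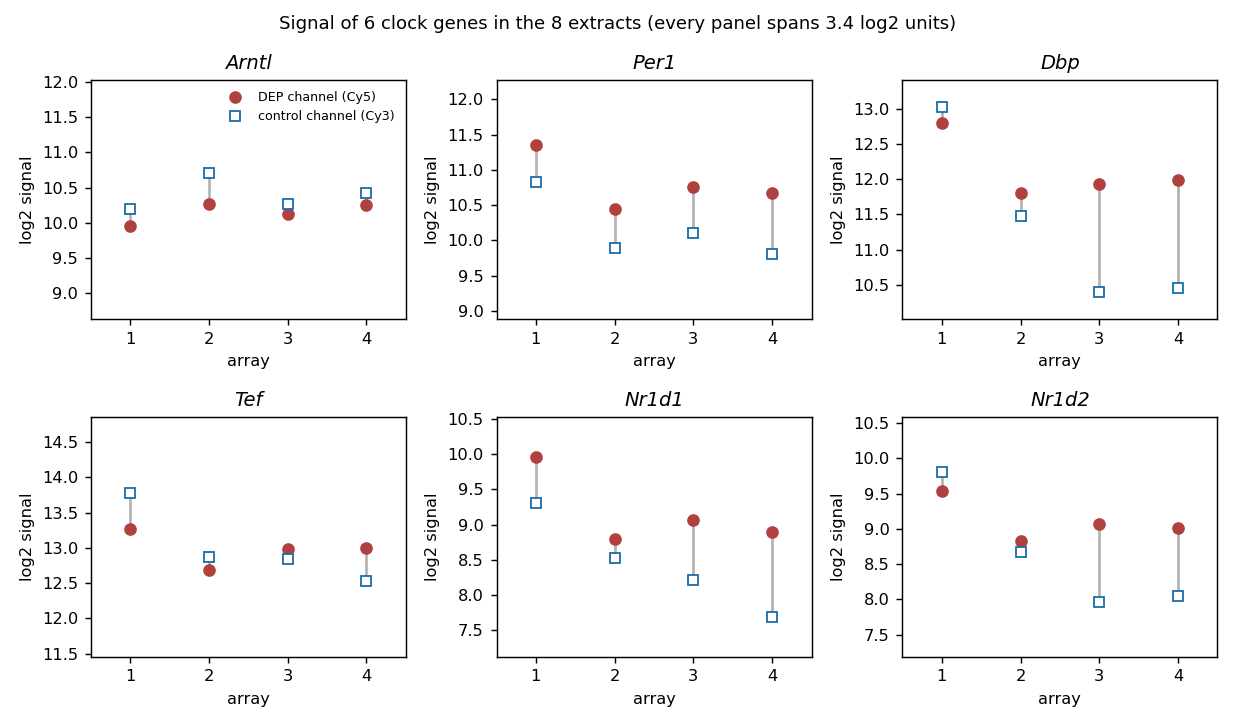
Log2 signal (vertical axis) of the 6 fully measured clock genes, on arrays 1 to 4, for the DEP channel (filled circles) and the control channel (open squares), joined within an array. Per1, Dbp, Tef, Nr1d1 and Nr1d2 are highest on array 1 in both channels, and Dbp in the control channel has a signal of 8303 on array 1 and 1347 on array 3.

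Because each extract has its own signal, the members can also be followed among extracts of the same group. On array 1 both extracts, DEP and control, had the highest signal of their group for all 8 genes of the Per and Dbp group, while Arntl had its lowest signal there in both. Of these, 5 genes were fully measured, and of all 18349 fully measured genes, 7.35% were highest and 8.79% lowest on array 1 in both channels. With each channel scaled to its 75th percentile, the 8 genes were again highest on array 1 in both channels and Arntl lowest. Of the 18349 genes, 5.83% were then highest there and 10.8% lowest. In the signals as deposited, with no scaling between arrays, the 8 genes were again highest on array 1 in both channels, but so were 68.7% of genes, and Arntl was not lowest there, as 1.17% of genes were.

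Relative to the mean of its own group, the 5 fully measured genes of the Per and Dbp group averaged 0.54, -0.33, -0.08 and -0.13 on the log2 scale in the DEP extracts of arrays 1 to 4. Arntl stood at -0.20, 0.12, -0.02 and 0.10 in the same extracts. In the controls the group average was 1.04, -0.02, -0.41 and -0.61, and Arntl stood at -0.21, 0.31, -0.13 and 0.03. The group and Arntl thus had opposite signs in both channels of arrays 1, 2 and 4 and the same sign in both channels of array 3.

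The spread of each member over the 4 extracts of a group shows this against other genes. In the DEP channel the SD of the log2 signal was 0.15 for Arntl, 0.24 for Tef, 0.30 for Nr1d2, 0.38 for Per1, 0.45 for Dbp and 0.54 for Nr1d1, where the median gene had 0.19. In the control channel the SDs were 0.23 for Arntl, 0.46 for Per1, 0.54 for Tef, 0.68 for Nr1d1, 0.86 for Nr1d2 and 1.23 for Dbp, where the median gene had 0.22. Dbp varied more among the controls than 98.1% of genes did, and its SD there was above its mean ratio of 0.80. In the controls 6 of 6 members lay above the median gene and 3 above its 90th percentile of 0.63. In the DEP channel 5 of 6 lay above the median and 1 above the 90th percentile of 0.52. Without array 1 the median member SD was 0.13 among the DEP extracts and 0.30 among the controls. The SD of all genes without array 1 was not computed, so it is not known whether genes in general fell likewise.

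**Figure D4:**
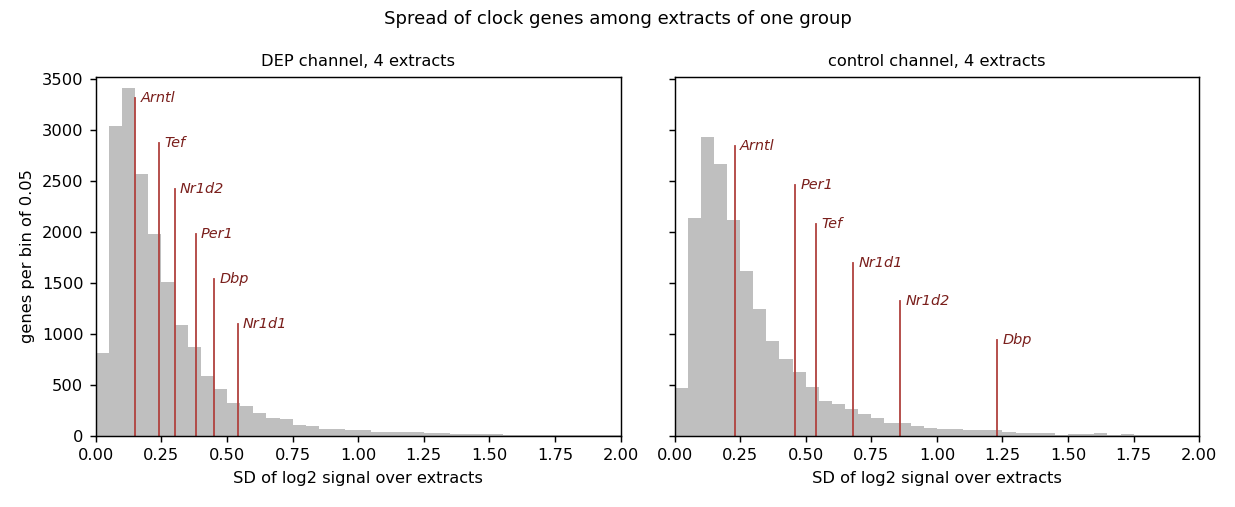
Number of genes (vertical axis) by the SD of their log2 signal over the 4 extracts of a channel (horizontal axis, bins of 0.05), for 18349 genes, with the 6 clock genes as lines; 43 genes in the DEP channel and 67 in the control channel lie beyond the axis. Arntl lies near the peak of genes in both panels, and Dbp at 1.23 lies in the far tail among the controls.

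The remaining clock genes came from a list of 16, of which 12 were well above background throughout. Their median ratio was -0.02. At an unadjusted p under 0.05, limma called 1 of them higher, Csnk1d, against 10% of all genes, and Rorb was called lower, as were 8.66% of all genes. Csnk1d, the kinase that marks PER proteins for decay, gave 0.44, 0.50, 0.33 and 0.36 (mean 0.41, SE 0.10, adjusted p = 0.172), but its second probe had a mean of -0.08. Rorb, a nuclear receptor made in brain and retina, averaged -0.73 (adjusted p = 0.22), with a second probe at 0.48.

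Other listed genes act beside the members in the loop. Clock, which pairs with ARNTL, gave 0.38, 0.29, -0.15 and -0.07 (mean 0.11, adjusted p = 0.689). Cry2, a repressor that joins PER, gave -0.60, -0.44, 0.02 and 0.20 (mean -0.20, adjusted p = 0.559). Cry1 was mostly near background and averaged -0.41 (adjusted p = 0.355). Nfil3, which competes with DBP and TEF at D-boxes, gave 0.40, -0.17, -0.29 and 0.02 (mean -0.01, adjusted p = 0.971). Ciart, a repressor of the same loop that is high with Nr1d1, gave 2.54, 0.84, 1.72 and -1.07 (mean 1.01, SE 0.61, adjusted p = 0.416), and only 1 of its control signals was well above background.

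Among 8 genes named as clock outputs, 8 means were above 0, where 54.2% of all genes tested were, with medians of 0.35, 0.28, 0.18 and -0.05 on arrays 1 to 4, so that the order of arrays was not that of the Per and Dbp group. Coq10b, a coenzyme Q binding protein, was the 1 called at an unadjusted p under 0.05, with ratios of 0.40, 0.89, 0.69 and 0.64 (mean 0.66, SE 0.12, adjusted p = 0.13), and its second probe averaged 0.24. Of 5 genes that glucocorticoids induce, which also induce Per1, Fkbp5 and Sgk1 were called higher at that level. These counts of 1 of 8 and 2 of 5 stand against 10% of all genes called higher. Fkbp5, a cochaperone of the glucocorticoid receptor, gave 0.89, 0.36, 0.41 and 0.39 (mean 0.51, adjusted p = 0.185), and Sgk1, a kinase, averaged 0.37 (adjusted p = 0.234). Tsc22d3, Zbtb16 and Pdk4 of the same list averaged -0.02, 0.00 and -0.25. Of the cold-inducible RNA-binding genes, which follow body temperature, Cirbp averaged 0.23 and Rbm3 0.13, and limma called neither.

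The genes whose 4 ratios lay nearest to those of Dbp were sought by root-mean-square distance among 14281 fully measured genes with a ratio on every array. The nearest were Pilrb1 at 0.16, Siglecf at 0.21 by the brighter of its probes, Clec4b1 at 0.24, and Cd5l and Timd4 at 0.25 each. These 5 encode surface or secreted proteins of immune cells; Cd5l, from macrophages, gave -0.70, 0.26, 1.60 and 1.54. Nr1d2 ranked 16th by this distance at 0.37, Nr1d1 129th at 0.58, Per1 279th at 0.68, Tef 2062nd at 0.92 and Arntl 9802nd at 1.27. Likeness over 4 arrays describes only these ratios.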

How the data were processed

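Extracts of mouse ears were compared on 4 two-colour arrays of 1 slide, without a dye swap. Spots were quantified by the authors in Feature Extraction (Agilent, 10.10.1.1). In the 4 deposited files, the processed intensities are background-subtracted and dye-normalized and the log10 ratio is Cy5 over Cy3. Channels were assigned by source name, since the labels list both treatments under channel 1. A table of the authors' log10 ratios was an alternative, and 0 columns were left without a sample.

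Ratios were brought to the log2 scale. Flagged spots (164 to 274 per array) and spots without a ratio (6179 to 8558 of 43020) were dropped, and spots averaged per probe. Probes with ratios on at least 3 arrays (31577) were fitted with an intercept in limma 3.58.1 (R 4.3.3; lmFit, eBayes). The test was two-sided, and p-values were adjusted by the Benjamini-Hochberg method over every fitted probe. A gene was read by its brightest probe, named through RefSeq accessions (GRCm38.p6, names only; 27655 probes matched). Signals were scaled between arrays with Aquantile. Well above background is the software's own flag. Between 59.2% and 68.9% of probes were well above background per channel; ratios correlated over probes at 0.61 between arrays 1 and 2, at -0.22 between arrays 1 and 4, and at 0.14 to 0.38 for the other pairs. Tests were run on simulated data with 200 of 31577 probes changed: limma called 87, 3 of them false, and recovered 61 of 100 changed by 2 and 23 of 100 changed by 1 on the log2 scale. Precision is limited by the 4 arrays, and the labels call the replicates biological without saying how many animals each holds, so p-values measure the spread between these arrays.

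The members, gene lists and tests were chosen with earlier results of these data known. Beside all members and every probe, the genes named were listed clock, output, glucocorticoid and cold-inducible genes with an unadjusted p under 0.05 or a mean past 2-fold, with Clock, Cry1, Cry2 and Nfil3 always, the 5 nearest to Dbp, and bright markers; others were named after their values were seen. A gene that the rule also takes is not reported here. Alternatives changed the background correction (normexp with offset 50, then loess or median centring), the ratio source, dim-probe and flag filters, the variance model, the probe of a gene, the level scaling and the arrays included. Tables were made in pandas 2.3.3 and numpy 2.4.6, and plots in matplotlib 3.10.9, under Python 3.11.15.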

Additional observations from a re-analysis of the deposited data

Results flagged for a closer look

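In 36 sets of 4 values (ratios and signals of the 12 member probes by array), 2 had 1 array set far from the other 3 by Dixon's test, which chance gives in about 1 set of 20. For the dimmer Bhlhe41 probe, A_55_P2133001, the array 1 ratio was 0.54, while the other arrays lay between -0.55 and -0.37. For the second Dbp probe, A_55_P2032081, the log2 signal of the array 1 DEP extract was 12.49, while the other DEP extracts lay between 11.50 and 11.65.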

How the results depend on the processing

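Member means were recomputed under 13 alternatives, where 117 of 125 values kept their sign and their side of an adjusted p of 0.05, 6 changed sign and 2 newly passed it. With normexp and median centring, Arntl stood at 0.04, Per3 at -0.11 and Tef at 0.42, and Per1 and Nr1d1 made 2 members called at an adjusted p under 0.05 and Dbp 1 past 2-fold, where 11.0% and 1.19% of all genes were. In that setting limma called 10 other clock genes and 5 output genes at an unadjusted p under 0.05, with 1 and 4 of them, and 2 glucocorticoid-induced genes, after adjustment; 1 cold-inducible gene passed unadjusted, as did 39.5% of all genes there. Normexp with loess, the intensity trend and ordinary least squares each gave 1 member lower at an unadjusted p under 0.05 and 2 output genes, and so for the 1 member did the filter on both channels; of all genes, between 6.11% and 8.96% were lower in these 4 settings, and between 15.5% and 19.0% were called either way. With the mean of a gene's probes, limma called 1 other clock gene and 1 cold-inducible gene at an unadjusted p under 0.05, as it did 18.2% of all genes. The median member SD over DEP extracts was 0.61 without scaling between arrays. The letters CACGTT in place of CACGTG stood in 1 member window, and in 5.44% of all genes with a window. The cause of these changes was not tested.

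Leaving out 1 array at a time gave between 2 and 5 members called higher at an unadjusted p under 0.05, between 0 and 1 past 2-fold, between 1 and 3 other clock genes and between 1 and 2 glucocorticoid-induced genes called either way. Of all genes, between 5.56% and 10.8% were called higher, between 2.25% and 4.13% were higher past 2-fold, and between 11.2% and 18.8% were called either way. Npas2 ranged from -0.38 to 0.16 (the latter without array 3), Tef from -0.18 to 0.15, and the median member SD over DEP extracts from 0.13 (without array 1) to 0.42. The spread of signals taken as deposited or without 1 array, and the count over fully measured members, were chosen after seeing the data. The arrays form 1 group, in which each ratio already sets 1 extract against the other, so the limma fit was paired by array. Signal over background limits Npas2, Per2, Per3 and Bhlhe41.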
